A study of Mus musculus with 24 samples.

Results

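The small leucine-rich proteoglycans are secreted matrix proteins built from leucine-rich repeats, most of which bind collagen fibrils, and versican is the large hyaluronan-binding proteoglycan of provisional matrix. The 10 genes described here were chosen by symbol and are decorin (Dcn), biglycan (Bgn), asporin (Aspn), lumican (Lum), fibromodulin (Fmod), Prelp, osteomodulin (Omd), osteoglycin (Ogn), podocan (Podn) and versican (Vcan). They are 10 of the 55291 gene names counted in each library. Of them, 9 passed the filter on low counts and were tested, and Omd did not pass.

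Decorin, biglycan and asporin form the first class of the family, lumican, fibromodulin, Prelp and osteomodulin the second, osteoglycin the third, and podocan a more distant class. Decorin and biglycan carry chondroitin or dermatan sulfate chains, and fibromodulin and lumican carry keratan sulfate. Several of these proteins, decorin among them, bind TGF-β, and soluble biglycan and decorin are known as ligands of Toll-like receptors. Versican carries many chondroitin sulfate chains, accumulates in inflamed and fibrotic lung, and is cut by proteases of the ADAMTS family. In lung, fibroblasts are a main source of most of these proteins.

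Pulmonary fibroblasts came from WT and TLR4-/- mice on the C57BL/6 background, aged 4 to 8 weeks, and the cells of each genotype were isolated from a pool of 3 to 4 lungs. At passages 3 to 6, after a night in reduced serum medium, they were kept for 24 h with PBS, the saline vehicle, with rmCIRP at 1 μg/ml, with rmTGF-β1 at 2 ng/ml or with both. rmCIRP is the recombinant mouse form of the cold-inducible RNA-binding protein, which acts as a danger signal outside cells, and rmTGF-β1 is that of a profibrotic cytokine. Each of the 8 conditions had 3 libraries of total RNA. The sources used here do not say whether the 3 libraries of a condition came from separate isolations, so p-values measure the spread between libraries, which may be technical. A difference between the genotypes is a difference between 2 pools of mice.

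Between 29853346 and 39664606 reads were counted on genes in each of the 24 libraries. Tlr4 itself, the gene named by the genotype, was not lower in the libraries labelled TLR4-/- (normalized count 903 ± 20.2 with PBS, SD, n = 3) than in WT (759 ± 41.9, n = 3), and gene counts do not show which exons were read, so the label is used as a name only. Raw counts of Xist, which is transcribed in female cells, did not exceed 3 in WT and were 4403 to 6201 under the TLR4-/- label. Ddx3y, which lies on the Y chromosome, was counted under both, with 3476 to 5044 raw counts in WT and 1738 to 2716 under the TLR4-/- label. Fibroblast markers were abundant in both genotypes with PBS, with a summed normalized count over 8 genes of 799203 to 857638 in WT and 757489.7 to 848486 in the libraries labelled TLR4-/-. All 13 macrophage markers were also counted, and their sum was 91539 to 99765 in WT and 350281 to 400475 in the libraries labelled TLR4-/-. The lung epithelial markers Epcam, Sftpc, Scgb1a1 and Foxj1 had means under 10 normalized counts in every condition, and the sum over all 8 epithelial markers was 259 to 358 in WT and 574 to 647 under the TLR4-/- label with PBS.

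One library stood apart from the others of its condition, the third library labelled TLR4-/- with rmCIRP+rmTGF-β1. Its normalized count of Bgn was 121999, against 149131 and 146235 in the other two, its macrophage marker sum was the highest of all libraries at 437241 and its smooth muscle marker sum the lowest at 158261. The third library with rmTGF-β1 alone under the same label also departed from its group in Fmod (142, against 219.7 and 227).

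In the RefSeq annotation, used here for gene order, the genes of this family lie in small clusters. Prelp and Fmod are adjacent protein-coding genes on chromosome 1, Dcn and Lum are adjacent on chromosome 10, and Aspn, Omd and Ogn follow each other on chromosome 13, all 3 inside the gene Cenpp. Vcan is also on chromosome 13, next to Hapln1, which encodes a link protein. Bgn is on chromosome X and Podn on chromosome 4. In the GENCODE M21 annotation, used here for exon lengths, exons of Prelp overlap the antisense gene Gm15851 over 350 bases. Exons of Aspn overlap Cenpp over 7 bases. The strand setting of the counting is not given in the sources used here, so reads of these overlaps may belong to either gene.

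The 250 bases before the annotated start are shown for Fmod and Prelp, the adjacent genes that fell with rmCIRP in WT cells, and for Vcan, which rose. The sequences are RefSeq's on GRCm38.p6, written 5′ to 3′ on the strand of the gene, at chr1:134037004-134037253 (plus strand), chr1:133921402-133921651 (minus strand) and chr13:89742513-89742762 (minus strand). Capitals mark CpG dinucleotides.
Fmod: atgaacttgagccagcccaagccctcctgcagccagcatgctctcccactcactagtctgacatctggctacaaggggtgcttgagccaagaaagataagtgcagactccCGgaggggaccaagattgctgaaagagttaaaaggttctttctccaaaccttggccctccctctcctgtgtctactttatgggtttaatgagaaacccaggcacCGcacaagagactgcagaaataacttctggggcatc
Prelp: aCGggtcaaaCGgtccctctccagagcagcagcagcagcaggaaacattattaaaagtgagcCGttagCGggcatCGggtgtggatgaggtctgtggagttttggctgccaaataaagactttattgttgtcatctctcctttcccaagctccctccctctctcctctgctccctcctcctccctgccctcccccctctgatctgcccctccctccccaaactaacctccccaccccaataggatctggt
Vcan: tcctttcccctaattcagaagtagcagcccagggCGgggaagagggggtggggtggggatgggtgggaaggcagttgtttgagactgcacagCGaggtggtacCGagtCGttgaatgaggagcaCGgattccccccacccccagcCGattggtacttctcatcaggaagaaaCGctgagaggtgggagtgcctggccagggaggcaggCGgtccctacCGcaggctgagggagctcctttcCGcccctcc

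These stretches held 2 CpG in Fmod, 5 in Prelp and 10 in Vcan, against a median of 6 over the 32817 promoters of the RefSeq table in windows of the same length. Both strands were searched for 5 motifs. The letters TGANTCA of AP-1 were in 6.75% of all promoters in the table, and the NF-κB consensus was in 0.981%. The palindrome GTCTAGAC of SMAD proteins was in 0.168%, and their shorter core CAGACA, which it does not contain, in 17.1%. The TATA box, searched as TATAAA, was in 12.4%. None of the 5 was found in Fmod, Prelp, Vcan, Bgn, Podn or Omd. The TATA letters were found in Aspn, 207 bases before the start on the strand of the gene and 178 bases before it on the other strand. In Ogn the matches 229 and 227 bases before the start overlap and lie on opposite strands. A match describes letters only, and its absence says that these letters are not in this window. Dcn and Lum were not matched in the table.

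Biglycan dominated the family in these fibroblasts. Levels of different genes were compared as RPKM, which is the read count scaled to the exon length of the gene and to the reads on genes in the library. With PBS, Bgn was at 819 ± 15.7 RPKM (SD, n = 3) in WT, which was 82.1% of the sum over the 10 genes. Prelp followed at 83.4 ± 7.15 RPKM, Dcn at 41.4 ± 1.64 and Vcan at 26.7 ± 1.11. These first 4 ranks were each separated by more than the spread of their libraries.

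The lower ranks were Podn at 10.6 ± 2.71 RPKM, Fmod at 7.56 ± 0.734, Ogn at 5.33 ± 1.69, Lum at 2.87 ± 0.569 and Aspn at 0.503 ± 0.146. Libraries of Podn and Fmod overlapped, as did those of Fmod and Ogn, so their order is not resolved. Omd, whose protein is best known from bone, had 0 to 6 raw counts per library in all 24 libraries and 0.0265 ± 0.0129 RPKM in WT with PBS. In the libraries labelled TLR4-/- with PBS, Bgn took 86.3% of the sum at 721 ± 5.25 RPKM, and Dcn (49.6 ± 4.11 RPKM) ranked above Prelp (36.3 ± 1.09 RPKM), the reverse of WT.

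**Figure D1:**
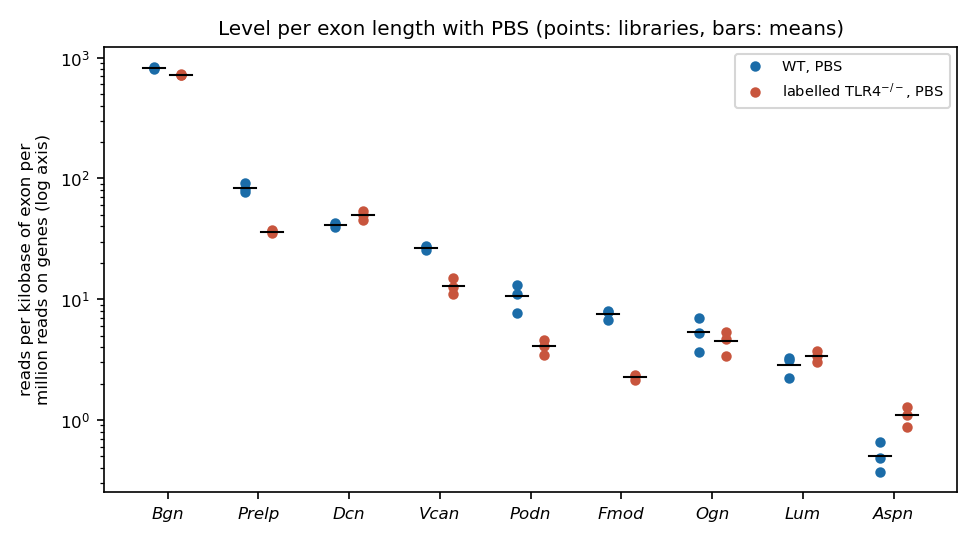
Level per exon length of 9 of the 10 genes with PBS, in RPKM (reads scaled to exon length and to the reads on genes) on a logarithmic axis, with points for the 3 libraries of each genotype label and bars for means. Bgn lies far above the other genes in both, and Prelp, Vcan, Podn and Fmod are lower in the libraries labelled TLR4-/- than in WT. Omd is left out because it had 6 or fewer counts per library.

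The first comparison asks how rmCIRP alone changed these genes in WT cells. Dcn and Vcan rose, Fmod, Prelp and Aspn fell, and Bgn, Lum, Ogn and Podn were not called. The abundant Bgn had the smallest estimate of the 9. A gene was called at an adjusted p under 0.1, the threshold of the study, in the quasi-likelihood F-test of edgeR, adjusted after Benjamini and Hochberg over all 16258 genes tested. In this comparison 43.9% of all genes were called (19.8% higher and 24.1% lower), so 5 calls among 9 genes is no particular feature of the family. The median log2 fold change was -0.16 over the 9 genes and -0.02 over all genes.

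Dcn, which regulates the assembly of collagen fibrils, had normalized counts of 7692, 8389 and 8062 with PBS, against 10587, 9776 and 10299.6 with rmCIRP. Every rmCIRP library lay above every PBS library, and the log2 fold change was 0.34 (adjusted p = 0.000108, SE 0.06 in edgeR's test). Vcan had 13013, 13379 and 12225 with PBS, against 14858, 14533 and 15296 with rmCIRP. Again the groups did not overlap, and the log2 fold change was 0.21 (adjusted p = 0.0252, SE 0.07 in edgeR's test), a rise of 15.3%.

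Fmod, a keratan sulfate proteoglycan that binds collagen, showed the largest change. Its normalized counts were 737, 892 and 866 with PBS, against 535, 492 and 454 with rmCIRP, with no overlap, and it fell by 0.76 on the log2 scale (adjusted p = 0.000127, SE 0.14 in edgeR's test), to 0.591 times the PBS level. Its neighbour Prelp, which anchors basement membranes to connective tissue, had 9227, 11016 and 9849 with PBS, against 8689.7, 8179 and 7458 with rmCIRP. All rmCIRP libraries were lower, by 0.31 on the log2 scale (adjusted p = 0.0168, SE 0.10 in edgeR's test). Aspn, a calcium-binding relative of decorin, was low throughout, at 28.9, 51.9 and 37.5 with PBS, against 25.5, 15.4 and 36.6 with rmCIRP. Its groups overlapped, and the estimate was -0.60 (adjusted p = 0.0727, SE 0.26 in edgeR's test).

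For comparisons of 3 libraries with 3, an exact permutation test of a single gene cannot go below p = 0.1 (two-sided), which every gene without overlap reached. Libraries of 4 of the 9 genes did not overlap between rmCIRP and PBS, against 50.8% of all genes.

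The genes that were not called differed in how tightly they were measured. Bgn had 168689.9, 167765 and 162119 with PBS, against 161319.6, 164293 and 160996 with rmCIRP, with a log2 fold change of -0.04 (95% confidence interval -0.14 to 0.06), which leaves room only for small changes in either direction. Podn, a repeat protein of arterial smooth muscle and kidney, had 1097, 1875 and 1558 with PBS, against 1454, 1215 and 1326 with rmCIRP, and its interval was -0.48 to 0.10. Lum (-0.16 to 0.50) and Ogn (-0.61 to 0.29) had wider intervals still, with PBS libraries of Ogn spanning 312 to 605. Changes of moderate size in these 3 genes could not be resolved.

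The calls of Dcn and Fmod did not depend on any alternative setting. Those of Prelp, Vcan and Aspn did. Prelp was not called without PBS library 2 or rmCIRP library 3, and its adjusted p ran from 5.10e-09 to 0.110 over all alternatives. Vcan was not called without PBS library 3 (adjusted p 3.23e-05 to 0.118). Aspn was not called without PBS library 2 or 3 or rmCIRP library 1 or 2, nor when these 6 libraries were fitted alone, and its estimate ran from -0.94 to -0.33 (adjusted p 0.0157 to 0.372). Markers of the cells moved with rmCIRP as well. Of 8 fibroblast markers, 6 fell and 1 rose, and their summed count was 671125 to 715252, below all PBS libraries. Of 13 macrophage markers, 10 fell and 2 rose, with a sum of 76596 to 81279. Of 6 smooth muscle and pericyte markers 4 fell, with a sum of 274554 to 306220 against 332774 to 357992 with PBS. All 4 tested epithelial markers fell (median log2 fold change -1.09), 1 of 4 tested mesothelial markers fell, and of 6 endothelial markers 1 rose and 1 fell. Their part in the results on these genes was not tested, and in bulk RNA fewer cells of a type and less RNA per cell cannot be told apart.

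**Figure D2:**
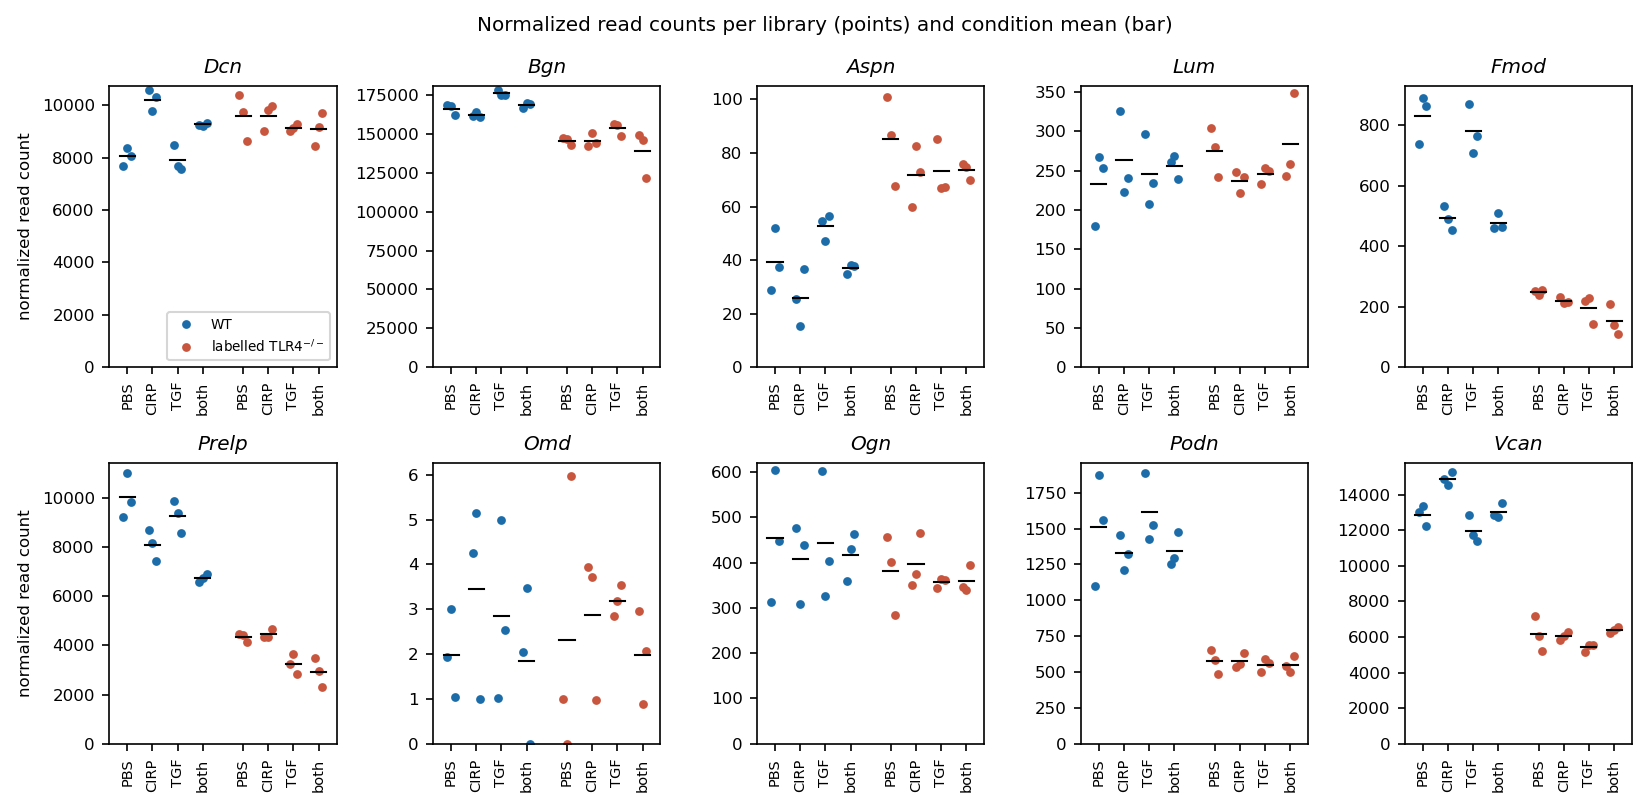
Normalized read counts of the 10 genes in all 24 libraries, with PBS, rmCIRP (CIRP), rmTGF-β1 (TGF) or both, as points with bars for the condition means and a linear axis that starts at 0 for each gene. In WT, Dcn lies higher and Fmod and Prelp lower in both conditions with rmCIRP, while Fmod, Prelp, Podn and Vcan lie lower in all conditions labelled TLR4-/-. Omd stays at 6 or fewer counts.

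The same question was asked with rmTGF-β1 present, in libraries other than those compared above. Both comparisons come from 1 fit of all 24 libraries, so their estimates of the spread are not separate. With rmCIRP+rmTGF-β1 against rmTGF-β1 alone in WT cells, Dcn was higher and Fmod, Prelp and Aspn were lower, 4 calls among 9 genes where 42.2% of all genes were called (20.5% higher and 21.7% lower). Libraries of 5 genes did not overlap, against 50% of all genes. Dcn had 8501, 7682 and 7556 with rmTGF-β1, against 9257, 9206 and 9343 with both. The groups did not overlap, and the log2 fold change was 0.22 (adjusted p = 0.00559, SE 0.06 in edgeR's test). Fmod had 870.5, 708 and 766 with rmTGF-β1, against 459.8, 509 and 463 with both, and fell by 0.72 on the log2 scale (adjusted p = 0.000290, SE 0.14 in edgeR's test).

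Prelp had 9875, 9379 and 8599 with rmTGF-β1, against 6592, 6760.4 and 6895 with both, the tightest set of Prelp libraries in WT. It fell by 0.46 on the log2 scale (adjusted p = 0.000922, SE 0.10 in edgeR's test). Aspn had 54.5, 47.0 and 56.6 with rmTGF-β1, against 34.7, 38.3 and 37.7 with both. It was lower in every library, by 0.52 (adjusted p = 0.0838, SE 0.23 in edgeR's test), but the call was lost in 5 of the 6 fits that left out a library, all except the one without rmTGF-β1 library 2 (adjusted p 0.0235 to 0.202 over the alternatives). Vcan, called with rmCIRP alone, had an estimate of 0.12 here (-0.03 to 0.27). When these 6 libraries were fitted alone, 7 of the 9 genes were called, Bgn and Podn as lower and Vcan as higher among them. Over all genes that fit called 7524, against 6859 in the joint fit. Markers of the cells moved here too. Of 8 fibroblast markers 5 fell, of 13 macrophage markers 8 fell and 2 rose, and of 6 smooth muscle and pericyte markers 4 fell. Of 4 tested epithelial and 4 tested mesothelial markers 2 each fell, and no endothelial marker was called. Their part in these results was not tested.

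A test of whether the response to rmTGF-β1 differed with rmCIRP present called none of the 9 genes in WT, with edgeR or with DESeq2, and none had an unadjusted p under 0.05 in edgeR. Over all genes edgeR called 0.0492% (0.0369% higher and 0.0123% lower), while 917 of 16258 had an unadjusted p under 0.05. The estimates lay between -0.15 (Prelp, -0.45 to 0.14) and 0.08 (Aspn, -0.64 to 0.80).

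In libraries labelled TLR4-/-, none of the 9 genes was called for rmCIRP against PBS. The call rate over all genes was 0%, although 1136 of 16258 genes had an unadjusted p under 0.05 and DESeq2 called 27. Among the 9 genes none had an unadjusted p under 0.05, and DESeq2 called none. Dcn had 10381, 9755 and 8634 with PBS, against 9014, 9839.8 and 9965 with rmCIRP, with overlapping libraries. Its log2 fold change was 0.01 (95% interval -0.12 to 0.13), an interval that lies below the WT estimate of 0.34. Fmod had 253, 238 and 256 with PBS, against 233, 213 and 215 with rmCIRP. It was lower in every rmCIRP library, where 13.7% of all genes did not overlap, but its estimate of -0.17 had an interval of -0.51 to 0.17. Prelp had 4483, 4409 and 4148 with PBS, against 4329, 4362 and 4682 with rmCIRP (interval -0.17 to 0.25), and Vcan had 7149.5, 6073 and 5223, against 5855, 6053 and 6263 (interval -0.16 to 0.13).

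The difference between the genotype labels in the response to rmCIRP was then tested directly. It was called for 3 of the 9 genes, Dcn, Fmod and Prelp, where 31.4% of all genes were called (17.1% higher and 14.3% lower). The response of Dcn was lower in the libraries labelled TLR4-/- by 0.33 on the log2 scale (adjusted p = 0.00606, SE 0.08 in edgeR's test), and this held under every alternative. The responses of Fmod and Prelp were less negative, by 0.59 (adjusted p = 0.0477, SE 0.21) and 0.35 (adjusted p = 0.0751, SE 0.14 in edgeR's test). The call of Fmod was lost without WT PBS library 2, WT rmCIRP library 3 or rmCIRP library 1 under the TLR4-/- label (adjusted p 6.45e-05 to 0.121 over the alternatives), and that of Prelp in 9 of 12 such fits, all except those without WT PBS library 1 or 3 or WT rmCIRP library 1 (adjusted p 1.48e-05 to 0.211). Vcan was not called, at -0.22 (adjusted p = 0.115, SE 0.10 in edgeR's test), but was called in 7 of the alternatives. Genotype label, pool of mice, Xist and macrophage markers vary together, so which of them the difference follows cannot be told apart.

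With rmTGF-β1 present, none of the 9 genes was called for rmCIRP in libraries labelled TLR4-/- (rmCIRP+rmTGF-β1 against rmTGF-β1), where 2.69% of all genes were called (1.56% higher and 1.13% lower). Without the third library with both, 1 gene of all those tested was called, and without the third library with rmTGF-β1 2141 were. Of the 9, 2 had an unadjusted p under 0.05 in edgeR, Bgn and Vcan, where 2912 of all 16258 genes had one. DESeq2 called 1 of the 9, Vcan, and 652 of all genes. The count among the 9 ran from 0 to 4 over the alternatives. Bgn had 156322, 155932 and 148401 with rmTGF-β1, against 149131, 146235 and 121999 with both, and its estimate of -0.15 (adjusted p = 0.135, SE 0.05 in edgeR's test) was -0.060 without the third library with both (adjusted p 0.00583 to 0.679 over the alternatives). Vcan had 5154, 5529 and 5547 with rmTGF-β1, against 6225, 6369 and 6559 with both. Every library with both was higher, where libraries of 1 of the 9 genes and of 13% of all genes did not overlap, and the estimate was 0.23 (adjusted p = 0.108, SE 0.07 in edgeR's test, 3.72e-05 to 0.679 over the alternatives). Without the third library with both, the library that stood apart, the estimate was 0.22 (adjusted p = 0.427 in edgeR). Fmod, with overlapping libraries, had an estimate of -0.36 (interval -0.72 to 0.01, adjusted p = 0.292 in edgeR). It was called in 2 of the 6 fits that left out a library and in 1 of the 6 other alternatives. Prelp, at -0.15 (interval -0.37 to 0.06), was called in 1 of each.

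**Figure D3:**
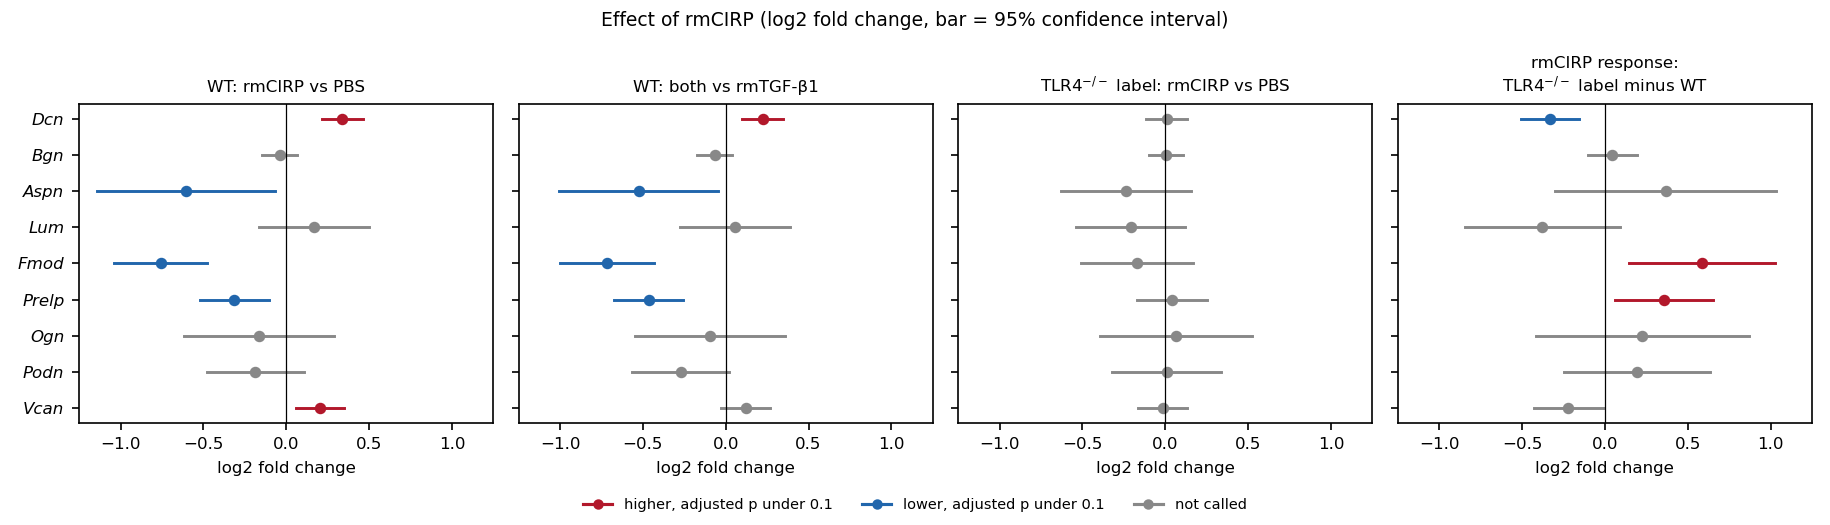
Log2 fold changes of the 9 tested genes for rmCIRP, as points with 95% confidence intervals, in WT alone, in WT with rmTGF-β1 present, in libraries labelled TLR4-/-, and as the difference in response between the labels (TLR4-/- minus WT). Coloured points passed an adjusted p of 0.1. Fmod lies at -0.76 and -0.72 in the 2 WT panels and Dcn at 0.34 and 0.22, while all points of the third panel are grey.

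The next comparisons ask how rmTGF-β1, the reference profibrotic stimulus, changed the family. In WT cells none of the 9 genes was called with edgeR or DESeq2, and none had an unadjusted p under 0.05 in edgeR, where 12.4% of all genes were called (5.77% higher and 6.65% lower). Bgn, often described as a TGF-β target, had 168689.9, 167765 and 162119 with PBS, against 178054, 175337 and 174977 with rmTGF-β1. Every rmTGF-β1 library was higher, where libraries of 1 of the 9 genes and of 29.7% of all genes did not overlap, and the log2 fold change was 0.08 (adjusted p = 0.384, SE 0.05 in edgeR's test, 0.0656 to 0.654 over the alternatives). It was called only when the 6 libraries were fitted alone. Aspn had 28.9, 51.9 and 37.5 with PBS, against 54.5, 47.0 and 56.6 with rmTGF-β1, with overlap, an estimate of 0.42 and an interval of -0.05 to 0.89. The intervals of Dcn (-0.15 to 0.10), Vcan (-0.26 to 0.04), Prelp (-0.32 to 0.09) and Fmod (-0.37 to 0.18) all included 0.

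Added to rmCIRP in WT cells, rmTGF-β1 lowered Prelp and Vcan, 2 calls among 9 genes where 20.5% of all genes were called (10% higher and 10.5% lower). Libraries of 4 of the 9 did not overlap, against 36.4% of all genes. Prelp had 8689.7, 8179 and 7458 with rmCIRP, against 6592, 6760.4 and 6895 with both, a log2 fold change of -0.27 (adjusted p = 0.0765, SE 0.10 in edgeR's test). Vcan had 14858, 14533 and 15296 with rmCIRP, against 12871, 12730.5 and 13533 with both, a log2 fold change of -0.20 (adjusted p = 0.0662, SE 0.07 in edgeR's test). Neither gene's libraries overlapped, but each call was lost in 5 of the 6 fits that left out a library. Prelp kept its call only without rmCIRP library 3 and Vcan only without library 3 of both (adjusted p 1.79e-06 to 0.231 and 0.000370 to 0.216 over the alternatives). Of 8 fibroblast markers 2 rose and 2 fell, and of 13 macrophage markers 1 rose and 1 fell. Of 6 smooth muscle and pericyte markers 1 rose, of 4 tested epithelial markers 1 fell, and no endothelial or mesothelial marker was called. Their part in these 2 calls was not tested.

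In libraries labelled TLR4-/-, Prelp and Vcan were lower with rmTGF-β1 than with PBS, 2 of 9 genes where 23.9% of all genes were called (12.1% higher and 11.7% lower). Libraries of 3 of the 9 did not overlap, against 33.8% of all genes. Prelp had 4483, 4409 and 4148 with PBS, against 3246, 3652 and 2836 with rmTGF-β1. All rmTGF-β1 libraries were lower, by 0.42 on the log2 scale (adjusted p = 0.00653, SE 0.10 in edgeR's test), and the call held under every alternative. Fmod was also lower in every library, with an estimate of -0.35 that was not called (adjusted p = 0.163, SE 0.17 in edgeR's test) and was -0.15 without the third rmTGF-β1 library (adjusted p 0.00258 to 0.621 over the alternatives). Vcan had 7149.5, 6073 and 5223 with PBS, against 5154, 5529 and 5547 with rmTGF-β1, and its groups overlapped. Its estimate of -0.18 (adjusted p = 0.0903, SE 0.07 in edgeR's test) was -0.06 without PBS library 1 and was called in only 1 of the 6 fits that left out a library, the one without PBS library 3 (adjusted p 0.000604 to 0.596 over the alternatives). Bgn was again higher in every library, 147284, 146726 and 143022 against 156322, 155932 and 148401, with an estimate of 0.08 that was not called (adjusted p = 0.286, SE 0.05 in edgeR's test). Of 8 fibroblast markers 2 rose and 3 fell, and of 6 smooth muscle and pericyte markers 1 rose and 2 fell. Of 13 macrophage, 4 tested epithelial and 4 tested mesothelial markers 1 each fell, and no endothelial marker was called. Their part in the calls of Prelp and Vcan was not tested.

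Added to rmCIRP under the same label, rmTGF-β1 lowered Prelp and Fmod, 2 of 9 genes where 32.8% of all genes were called (17.2% higher and 15.6% lower). Libraries of 2 of the 9 did not overlap, against 34.5% of all genes. Prelp had 4329, 4362 and 4682 with rmCIRP, against 3485, 2968 and 2328 with both, a log2 fold change of -0.61 (adjusted p = 0.000209, SE 0.10 in edgeR's test). Fmod had 233, 213 and 215 with rmCIRP, against 209, 139.7 and 109 with both, a log2 fold change of -0.53 (adjusted p = 0.0276, SE 0.17 in edgeR's test). In both genes the third library with both, the one that stood apart, was the lowest. Without it the change of Prelp was -0.47 and still called, and that of Fmod was -0.35 and not called (adjusted p = 0.163 in edgeR, 1.70e-06 to 0.163 over the alternatives). The Fmod call was also lost when these 6 libraries were fitted alone. Markers moved in this comparison as well. Of 6 smooth muscle and pericyte markers 4 fell and 2 rose, of 6 endothelial markers 4 rose (median log2 fold change 1.04), and 3 of 4 tested mesothelial markers fell. Of 13 macrophage markers 4 rose and 1 fell, of 8 fibroblast markers 1 rose and 3 fell, and no tested epithelial marker was called. Their part in the calls of Prelp and Fmod was not tested.

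Prelp was thus lower with rmTGF-β1 in 3 of the 4 comparisons that added it, and not called in WT against PBS. Whether the response to rmTGF-β1 differed between the labels was tested directly, and it was called for none of the 9 genes by edgeR or DESeq2, where edgeR called 0.0861% of all genes (0.0369% higher and 0.0492% lower). Of the 9, 2 had an unadjusted p under 0.05 in edgeR, Prelp (-0.30, adjusted p = 0.473) and Aspn (-0.63, adjusted p = 0.462). Over all genes 1686 of 16258 had one.

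**Figure D4:**
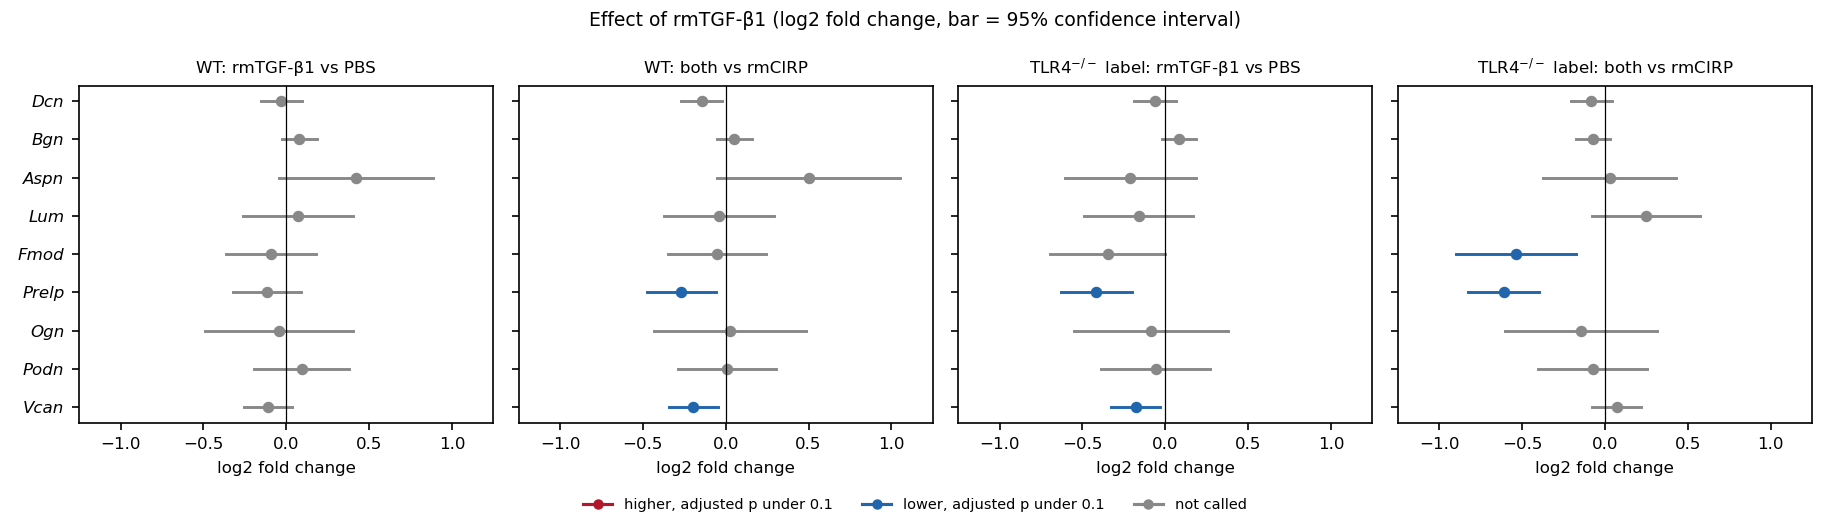
Log2 fold changes of the 9 tested genes for rmTGF-β1, as points with 95% confidence intervals, against PBS and against rmCIRP alone in WT and in libraries labelled TLR4-/-. Coloured points passed an adjusted p of 0.1. No gene is coloured in WT against PBS, and Prelp lies at -0.27, -0.42 and -0.61 in the other 3 panels.

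The largest differences in the family were between the genotype labels, without any stimulus. With PBS, 5 genes were lower and 2 higher in libraries labelled TLR4-/- than in WT, 7 calls among 9 genes where 47.1% of all genes were called (23.2% higher and 24% lower), and 7 of 9 did not overlap, against 51.7% of all genes. The call of each of these 7 genes held under every alternative. The comparison shares its PBS libraries with those of rmCIRP and rmTGF-β1 against PBS above.

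Fmod differed most, at 737, 892 and 866 in WT and 253, 238 and 256 in libraries labelled TLR4-/-, and was lower by 1.74 on the log2 scale (adjusted p = 1.39e-09, SE 0.15 in edgeR's test). Podn, with counts of 652, 587 and 484 under the TLR4-/- label, was at 0.380 times its WT level (-1.40, adjusted p = 7.91e-08, SE 0.15 in edgeR's test). Prelp was at 0.432 times its WT level (-1.21, adjusted p = 1.46e-09, SE 0.10), and Vcan at 0.477 times (-1.07, adjusted p = 2.66e-11, SE 0.07 in edgeR's test). In none of these 4 genes did any library of one label reach the range of the other.

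Bgn was lower by 12.5% (-0.19, adjusted p = 0.00345, SE 0.05 in edgeR's test), again without overlap. Aspn and Dcn went the other way. Aspn was at 101, 86.9 and 67.7 under the TLR4-/- label against 28.9, 51.9 and 37.5 in WT (1.11, adjusted p = 0.000193, SE 0.21 in edgeR's test), and Dcn was higher by 18.9% (0.25, adjusted p = 0.00191, SE 0.06 in edgeR's test). Lum (-0.09 to 0.57) and Ogn (-0.71 to 0.20) were not called, with intervals of the log2 difference that included 0.

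Markers of other cells differed in the same comparison. All 13 macrophage markers were higher under the TLR4-/- label, with a median log2 difference of 2.20, and 3 of 8 fibroblast markers were lower. Of 6 endothelial markers 5 were lower and 1 higher, and of 6 smooth muscle and pericyte markers 4 were lower and 1 higher. All 4 tested epithelial markers were higher (median log2 difference 1.76), and of 4 tested mesothelial markers 2 were higher and 1 lower. The part of these cells in the difference of Fmod, Podn, Prelp, Vcan, Bgn, Aspn and Dcn was not tested. Genotype, pool of mice, Xist and these markers cannot be told apart.

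The proteases that cut versican or process procollagens and biglycan were followed next. Of 9 such genes 8 were tested. With rmCIRP in WT, 5 fell and 2 rose, where 43.9% of all genes were called, with a median log2 fold change of -0.26 against -0.02 over all genes. Adamts1 fell from 5416 ± 396 (SD, n = 3) to 2268 ± 211 normalized counts (log2 fold change -1.26, adjusted p = 1.72e-10, SE 0.09 in edgeR's test), and Adamts5 from 791 ± 33.0 to 354 ± 11.2 (-1.16, adjusted p = 8.23e-06, SE 0.17). Adamts9, which also cuts versican, rose from 1944 ± 194 to 4186 ± 221 (1.10, adjusted p = 2.74e-07, SE 0.12 in edgeR's test). Members of one protease family that share a substrate thus moved in opposite directions in the same libraries in which Vcan rose by 15.3%. The response to rmCIRP differed between the labels for each of these 3 genes, by 1.32, 1.18 and -1.22 on the log2 scale (adjusted p 6.19e-08, 0.000444 and 3.45e-05 in edgeR). In that test 4 of the 8 proteases were called as higher and 1 as lower, where 31.4% of all genes were called. The 3 genes were named for the size of their change in WT, and the same WT libraries enter this difference.

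With rmTGF-β1, for which none of the 9 proteoglycan genes was called in WT, 5 of the 8 proteases fell and 2 rose, where 12.4% of all genes were called, with a median of -0.43 against -0.02 over all genes. Adamts9 (-0.72, adjusted p = 0.000880, SE 0.13 in edgeR's test), Adamts5 (-0.61, adjusted p = 0.0179) and Adamts1 (-0.59, adjusted p = 0.000126) were lower. The 2 that rose were Bmp1 (0.21, adjusted p = 0.000731 in edgeR) and Tll1 (0.31, adjusted p = 0.00572), the proteases of the tolloid family that remove the propeptides of procollagens and of biglycan. In libraries labelled TLR4-/-, rmTGF-β1 likewise lowered 5 and raised 2, where 23.9% of all genes were called, with Adamts5 at -1.28, Adamts9 at -1.15 and Adamts1 at -0.90.

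**Figure D5:**
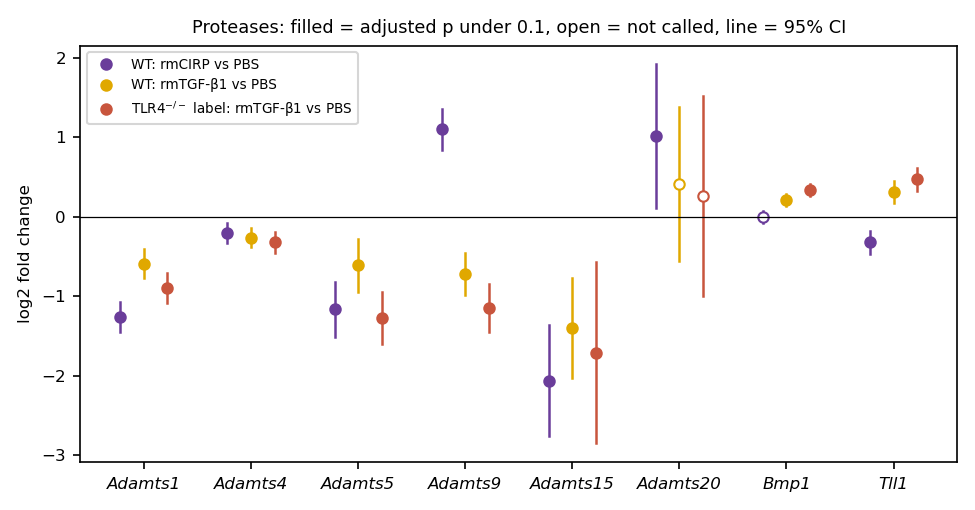
Log2 fold changes of 8 proteases with 95% confidence intervals, for rmCIRP in WT and for rmTGF-β1 in WT and in libraries labelled TLR4-/-. Filled points passed an adjusted p of 0.1. Adamts9 lies at 1.10 with rmCIRP and at -0.72 and -1.15 with rmTGF-β1, while Adamts1 and Adamts5 lie below 0 in all 3 comparisons. Adamts15 and Adamts20 have low counts and wide intervals.

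Enzymes that build the sugar chains of these proteins were followed as well. All 4 tested enzymes of keratan sulfate, the chain of fibromodulin and lumican, were called with rmCIRP in WT, 3 lower and 1 higher, where 19.8% of all genes were higher and 24.1% lower. Their median was -0.61, against -0.02 over all genes. B4galt4, a galactosyltransferase, was at -0.63 (adjusted p = 5.82e-05, SE 0.11 in edgeR's test), the sulfotransferase Chst1 at -0.60 (adjusted p = 0.00124, SE 0.13), and the sulfotransferase Chst2 at 0.43 (adjusted p = 0.000145, SE 0.08 in edgeR's test). The other gene that fell, B3gnt7, had a mean of 22.8 normalized counts with PBS. With rmTGF-β1 in WT only Chst2 was called of the 4, where 12.4% of all genes were called (0.40, adjusted p = 0.00201 in edgeR). Under the TLR4-/- label all 4 were called with rmTGF-β1, 3 higher and B4galt4 lower, where 23.9% of all genes were called.

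Of 15 tested enzymes of chondroitin and dermatan sulfate, the chains of decorin, biglycan and versican, 3 rose and 5 fell with rmCIRP in WT, with a median of -0.09. That share is near the 43.9% of all genes called there (19.8% higher and 24.1% lower). Chst11, the abundant chondroitin 4-sulfotransferase, rose from 17789 ± 2243 (SD, n = 3) to 26852 ± 1565 normalized counts (0.59, adjusted p = 0.00159, SE 0.14 in edgeR's test), while Chst12, an enzyme of the same activity, fell from 3139.9 ± 218 to 2158 ± 113 (-0.55, adjusted p = 0.00256, SE 0.13). Csgalnact1, which starts the chain, rose by 0.53 (adjusted p = 0.00749, SE 0.15 in edgeR's test). With rmTGF-β1 in WT 3 rose and none of the 15 fell, where 5.77% of all genes rose and 6.65% fell. They were the uronyl 2-sulfotransferase Ust (0.69, adjusted p = 1.42e-05 in edgeR) and the chain polymerases Chsy3 (0.59, adjusted p = 0.00780) and Chsy1 (0.42, adjusted p = 2.49e-06). Under the TLR4-/- label rmTGF-β1 raised 6 and lowered 5, where 12.1% of all genes rose and 11.7% fell, with Ust at 0.89. Of the 6 enzymes of the linker that joins chain and protein, 3 rose and 1 fell with rmCIRP in WT (43.9% of all genes called), led by Xylt1 (0.53, adjusted p = 0.00807 in edgeR).

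Among other genes of the family, 5 of 8 relatives of the small proteoglycans were tested, and 2 fell with rmCIRP in WT, where 24.1% of all genes fell. They were Tsku (-0.21, adjusted p = 0.000984, SE 0.05 in edgeR's test) and the low Podnl1 (-1.06, adjusted p = 0.00834, SE 0.30). Of 7 hyalectans and link proteins 4 were tested, and 1 rose and 1 fell, where 19.8% of all genes rose and 24.1% fell. Acan, which encodes aggrecan, the cartilage relative of versican, fell from 1105 ± 36.0 (SD, n = 3) to 487 ± 30.1 normalized counts (-1.19, adjusted p = 7.44e-12, SE 0.07 in edgeR's test), and the link protein gene Hapln4 rose (0.55, adjusted p = 5.29e-05, SE 0.09 in edgeR's test). The large proteoglycans versican and aggrecan thus moved in opposite directions with rmCIRP.

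Of 10 receptors reported for soluble decorin or biglycan, 5 rose and 4 fell with rmCIRP in WT, where 43.9% of all genes were called, with a median of 0.05 against -0.02 over all genes. Cd14, the co-receptor of Toll-like receptors, rose from 1569 ± 148 (SD, n = 3) to 5122 ± 444 normalized counts (1.70, adjusted p = 4.68e-11, SE 0.11 in edgeR's test). Tlr2 rose by 1.62 (adjusted p = 8.65e-12, SE 0.10) and Met, a receptor tyrosine kinase bound by decorin, by 1.04 (adjusted p = 1.42e-10, SE 0.07 in edgeR's test). Between the labels with PBS, 5 receptors were higher and 1 lower under the TLR4-/- label, where 47.1% of all genes were called, with Cd14 (1.56), Tlr2 (1.14) and P2rx7 (1.07) highest, genes that macrophages express too. The part of macrophages in these values was not tested.

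The family did not move as a unit over the 8 conditions. Across the 8 condition means of log2 CPM (counts scaled to library size), Fmod and Prelp had a Pearson correlation of 0.985 and Podn and Vcan of 0.964, while Aspn and Vcan had -0.928. These are descriptions over 8 points that share the difference between the genotype labels, and carry no test. The genes outside the family most like each member, among 12302 candidates with at least 50 normalized counts on average, were Sema3c, Grem1 and Tbx4 for Vcan (0.998, 0.997 and 0.996) and Fam149a, Hspb6 and Adamts2 for Fmod (0.997, 0.995 and 0.995). For Prelp they were Nrn1, Lix1l and Igsf10, and for Podn Igfbp2, Dlx2 and Asphd2, all at 0.99 or above. For Aspn they were Rtn4ip1, Fkbp1b and Ttyh3 (0.988 to 0.982).

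Lum had the smallest range of the tested members and the lowest correlations with its closest genes. Dcn, whose condition means spanned 0.37 on the log2 scale, was most like Map3k8, Traf2 and Tbc1d13 (0.980, 0.976 and 0.974). Bgn (range 0.34) was most like Snhg5, Lrrc75b and Slc43a1 (0.984, 0.983 and 0.982), Ogn (0.29) like Acad9, Adcy6 and Pank1 (0.982, 0.981 and 0.981), and Lum (0.28) like Abhd17b, Ier2 and Ubald2 (0.941, 0.940 and 0.934). The range of Fmod was 2.48, that of Prelp 1.79 and that of Vcan 1.45.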

How the data were processed

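Total RNA of 24 fibroblast libraries was prepared with a TruSeq Stranded Total RNA kit. The deposited values are whole-number read counts per gene, 1 column per library, which the authors made with STAR2 as aligner, a GENCODE reference for mouse and HTSeq as counter. The submitters' processing notes name FastQC, HTSeq and the build NCBIM37. Of the 55291 gene names 53292 matched GENCODE M21, whose exon lengths and exon overlaps were used. Gene order was taken from RefSeq. The annotation release and strand setting are not given in the sources used here. Lines that name no gene held 14.5 to 16.1% of the reads of a library and were left out.

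Counts were tested with edgeR 4.0.16 (limma 3.58.1, R 4.3.3), with TMM normalization, filterByExpr and 1 mean per condition over all 24 libraries, and adjusted over the 16258 genes that passed. A call is an adjusted p under 0.1. Normalized counts are counts divided by size factors of DESeq2 1.42.0. Standard errors and 95% intervals come from the same fit, and the procedure was tested on simulated data. Groups were taken from the sample labels. Replicate libraries of 1 condition differed by more than counting noise (chi-square per degree of freedom of at least 2.67), so none was merged. For genes with low counts, Omd, Aspn and Podnl1 among them, counting error is of the order of the spread between libraries.

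All 10 genes are named. From each list of related genes up to 3 are named per comparison, those called with the largest change whose normalized count averaged 50 or more, and all where a count is 5 or fewer. Likeness was ranked over the 8 condition means. The genes and lists were chosen with earlier results of these data known, so no list is independent evidence. Alternatives were DESeq2's test and size factors, RLE normalization, no filter on low counts, a mean count of at least 10, the replicate number as a block, fits of the compared libraries alone, and leaving out each library in turn.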

Additional observations from a re-analysis of the deposited data

Results flagged for a closer look

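The response of 3 genes to rmCIRP differed between the genotype labels by a direct test of the difference in edgeR. For Dcn the difference (TLR4-/- label minus WT) was -0.33 on the log2 scale, from a rise of 0.34 in WT to 0.01 under the TLR4-/- label, and the adjusted p (0.00606) was at most 0.0209 over the alternatives. For Fmod it was 0.59, from -0.76 to -0.17. For Prelp it was 0.35, from -0.31 to 0.04. The last 2 were lost in 3 and in 9 of 12 fits that left out a library. Genotype, pool of mice, Xist and macrophage marker level cannot be told apart in these differences. In the same test 31.4% of all genes were called.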

How the results depend on the processing

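Over 9 genes and 12 comparisons, 25 of 108 gene results were called, 18 more were called only under an alternative, and 65 under none. No called result changed sign. Deviations of same-numbered libraries had a mean correlation of 0.012 (from -0.117 to 0.369), with 13 of 24 libraries closest to their own number. The highest values were between rmTGF-β1 and rmCIRP+rmTGF-β1 under the TLR4-/- label, 0.369 for number 3 and 0.182 for number 1. Whether the replicate numbers pair the libraries is not known. With the replicate block, 1 gene was called for rmCIRP in libraries labelled TLR4-/- (0 without it), 810 for rmCIRP added to rmTGF-β1 under that label (437 without), 22 for the difference in rmTGF-β1 response (14 without), and 1 and 2 of the 9 genes for rmTGF-β1 and for rmCIRP added to it under that label (2 and 0 without). With no filter on low counts, these 3 counts over all genes were 149, 1580 and 563, the WT interaction gave 198, and the genes called were 4 for rmCIRP added to rmTGF-β1 under the label, 5 for the difference in rmCIRP response and 1 for that in rmTGF-β1 response. With a mean count of at least 10, the difference in rmTGF-β1 response gave 23 genes and rmCIRP added to rmTGF-β1 under the label 1 of the 9. DESeq2 gave 34 for the interaction, 27 for rmCIRP under the label, 135 for the difference in rmTGF-β1 response and 1 of the 9 for rmCIRP added to rmTGF-β1 under the label. Fitted alone, the compared libraries gave 125 for the interaction. Under the label they gave 29 for rmCIRP, 0 for rmCIRP added to rmTGF-β1 and 2710 for rmTGF-β1 added to rmCIRP (5329 in the joint fit). Of the 9 genes they gave 1 for rmTGF-β1 in WT, where 2983 of all genes were called (2019 in the joint fit). They gave 7 of the 9 for rmCIRP added to rmTGF-β1 in WT, where 7524 of all genes were called (6859 in the joint fit). Under the label 1 of the 9 was called for rmTGF-β1 and 1 for rmTGF-β1 added to rmCIRP. The cause of these shifts was not tested.

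Leaving out 1 library at a time gave 1029 to 1690 genes for rmTGF-β1 in WT (2019 with all), 2 to 7 for the interaction, 0 to 9 for rmCIRP, 2517 to 3783 for rmTGF-β1 and 0 to 2674 for rmCIRP added to rmTGF-β1 under the TLR4-/- label, and 0 to 119 for the difference in rmTGF-β1 response. Of the 9 genes, it gave 3 to 6 for rmCIRP in WT, 0 to 2 for rmTGF-β1 added to rmCIRP in WT, and under the label 1 to 2 for rmTGF-β1, 0 to 4 for rmCIRP added to it and 1 to 3 for rmTGF-β1 added to rmCIRP, and 1 to 3 for the difference in rmCIRP response. Of the 108 gene estimates 39, none of them called, crossed 0 in these fits, among them those of Podn with rmCIRP in WT (-0.36 to 0.010), Dcn (-0.068 to 0.067) and Vcan (-0.13 to 0.11) with rmCIRP under the label, Bgn with rmTGF-β1 added to rmCIRP there (-0.12 to 0.018) and Ogn between labels (-0.45 to 0.017). With 3 libraries a group, changes inside the intervals given above could not be resolved.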
